A study of Homo sapiens with 12 samples.

Results

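RNF113A depletion was examined in A549 cells, a human lung adenocarcinoma line, that had been treated with Cisplatin, a platinum drug that cross-links DNA. The comparison set 3 libraries of cells carrying a control shRNA and Cisplatin against 3 libraries of cells carrying an shRNA against RNF113A and Cisplatin, chosen by their labels, which made 6 of the 12 libraries of the series. The other libraries came from the same cells without the drug and are used here only to show where the Cisplatin-treated cells differed. Every group had been infected with lentivirus and selected for 4 days with puromycin at 1 µg/ml, and the treated groups received 25 µg/ml Cisplatin for 20 h. Each group stands for a single shRNA in a single cell line, and which shRNA of the study was used is not given in the sources used here. Total RNA was extracted, and stranded mRNA libraries were sequenced in paired ends in pooled runs. Per the study's methods the 3 libraries of a condition were biological replicates, without saying whether they came from separate infections.

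RNF113A is a RING finger protein with a zinc finger that binds RNA, and its yeast counterpart belongs to the complex that the spliceosome forms when it is activated. In the spliceosome the 5′ splice site, the branch point and the 3′ splice site of an intron are recognised in turn before the intron is cut out, and an intron that is left in the mRNA usually brings a stop codon or keeps the transcript in the nucleus. RNF113A is also a ubiquitin ligase and has been linked to the repair of alkylated DNA, and its loss of function is known in a form of trichothiodystrophy.

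RNF113A itself (X:119004497-119005791, GRCh37) was measured at 31.5, 28.9 and 27.7 CPM (the reads of a gene scaled by TMM to a common library size) in the 3 libraries labelled shControl + Cisplatin and at 25.8, 24.3 and 29.9 CPM in the 3 libraries labelled shRNF113A + Cisplatin. The groups overlapped, because the third library labelled shRNF113A lay above 2 of the control libraries. In edgeR's quasi-likelihood test its log2 fold change was -0.14 (standard error 0.09, adjusted p = 0.233), so the mRNA of the targeted gene did not set the groups apart, and the second group is called by its label throughout. In untreated cells RNF113A was at 20.3, 19.5 and 19.8 CPM with the control shRNA and at 15.3, 15.8 and 16.8 CPM with the other, which is -0.31 on the log2 scale (adjusted p = 0.025). NDUFA1 lies across from it on the other strand, and only reads of the strand of RNF113A were counted for it.

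Aligned and unaligned read pairs came to between 44841726 and 56071514 in the control libraries and between 33859097 and 39414380 in those labelled shRNF113A, which were the 3 smallest of the 12. Of these pairs, 37808692 to 45721152 and 26220526 to 30806147 were assigned to genes. Unmapped pairs made up 5.34% of the pairs on average in control and 7.77% in the other libraries. Pairs that met no annotated exon on the gene strand, a class that includes pairs within introns, made up 5.57% and 9.38%. The groups overlapped for neither share (exact permutation test, two-sided, p = 0.10, the smallest that 3 against 3 can give). Markers of A549 epithelium were abundant, with a summed level of 11060 to 14653 CPM in control and 10484 to 11356 CPM in the libraries labelled shRNF113A. Of 11 leukocyte markers 3 passed the filter on low counts, and the summed level of the list was 43.7 to 49.2 CPM in control and 65.6 to 84.1 CPM in the other libraries. Most of it was CD68, a lysosomal protein of macrophages and of many other cells, while PTPRC, which marks all leukocytes, had at most 1 read and CD3D and MS4A1, which mark T and B cells, had 0 reads in every library. CD68 was called higher (log2 fold change 1.05), a call that held in 3 of the 6 fits without one library. ITGAM went the other way, at 462, 482 and 794 reads in control and 203, 235 and 182 reads in the other libraries. It passed the adjusted p-value but fell short of 2-fold (log2 fold change -0.98). The 7 endothelial markers summed to 0.158 to 0.319 CPM in control and 0.162 to 0.636 CPM in the other libraries. CDH5, the one of them that passed the filter, had 0 to 5 and 3 to 14 reads in overlapping groups and was called higher (log2 fold change 2.35), a call that held in 2 of the 6 fits, and CLDN5 had 0 reads throughout. Fibroblast markers summed to 7.68 to 15.7 and 8.14 to 8.98 CPM. Of the 5 tested, COL3A1 and LUM were called higher and 3 were not called, with a median log2 fold change of -0.60. In bulk RNA of this kind, fewer cells of a type and less RNA per cell cannot be told apart.

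Of 15352 genes tested, 1891 differed between the groups by 2-fold or more with an adjusted p-value under 0.05, which is 12.3% of the genes. Higher levels in the libraries labelled shRNF113A were called for 1059 genes (6.90%) and lower levels for 832 (5.42%), and 6586 genes (42.9%) passed the adjusted p-value alone, 21.1% of the genes with a higher and 21.8% with a lower level. With at least 10 counts required in every library the calls were 1103, 607 higher and 496 lower. For 1860 of the called genes the libraries of the groups did not overlap, against 57.7% of all genes tested. The genes that rose most included those of epithelial surfaces and of squamous differentiation, and the genes that fell most included FN1 of the matrix, BMP7 and the stress-response gene NUPR1. The largest rises and falls were named only among genes whose groups did not overlap, so their separation was set by that choice.

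CEACAM5, the carcinoembryonic antigen of epithelial surfaces, was at 4.97, 7.60 and 2.66 CPM in control libraries and at 86.0, 122.6 and 147.9 CPM in those labelled shRNF113A. All 3 labelled libraries lay far above all 3 controls, and the difference was 4.55 on the log2 scale (standard error 0.48, adjusted p = 3.77e-05). Its neighbour CEACAM6 was at 168, 202 and 152 CPM and at 1358, 1589 and 1487 CPM, a log2 fold change of 3.09 (standard error 0.15). The CEACAM genes are close copies of each other, so reads may be shared between them. MUC5AC, a gel-forming mucin, rose from 2.34, 2.41 and 2.06 CPM to 24.9, 27.9 and 24.4 CPM, and TFF1, a trefoil peptide secreted with mucins, from at most 0.890 CPM to between 4.20 and 8.12 CPM. Neither gene had overlapping groups, which for MUC5AC was a condition for naming it. Of the 14 CEACAM and mucin genes tested, 9 rose, 0 fell and 5 were not called, and the median log2 fold change of the list was 1.65, where that of all genes was -0.0069. This list and those below were chosen with earlier results of these data known, so their counts and medians are a description and not a test.

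Genes of squamous epithelium, the stratified kind that builds a cornified layer, went the same way, with 12 of 29 higher, 0 lower and a median log2 fold change of 0.75. SCEL, a precursor of the cornified envelope, was at 5.87, 5.34 and 6.21 CPM in control libraries and at 76.1, 83.2 and 67.6 CPM in those labelled shRNF113A (log2 fold change 3.70, standard error 0.23, adjusted p = 9.25e-07). TRIM29, a tripartite motif protein of stratified epithelia, was at 8.29, 11.2 and 9.47 CPM and at 85.4, 87.2 and 98.6 CPM (log2 fold change 3.23, standard error 0.13, adjusted p = 4.01e-08). For both genes the control libraries lay close together and well below the others. COL17A1, a transmembrane collagen of the hemidesmosome, rose as well, from between 9.28 and 10.1 CPM to between 70.9 and 92.4 CPM. SERPINB5, the serpin maspin, was at 2.87, 2.91 and 2.66 CPM and at 19.5, 17.4 and 27.9 CPM. The antimicrobial elastase inhibitor PI3 and the calcium-binding proteins S100A14 and S100A9 had log2 fold changes of 4.39, 4.34 and 3.69, from control levels under 1 CPM.

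Among 15 keratins 3 were higher and 1 lower, where 6.90% and 5.42% of all genes were. KRT6A, a keratin of activated epidermis, was at 0.342, 0.168 and 0.298 CPM in control libraries and at 10.3, 9.58 and 21.3 CPM in those labelled shRNF113A, 5.65 higher on the log2 scale (standard error 0.49, adjusted p = 8.72e-06). KRT15 and KRT20 rose by log2 fold changes of 2.03 and 1.797, while KRT4 fell from 22.3, 10.9 and 21.98 CPM to 2.23, 3.96 and 2.92 CPM. Of 34 genes of epithelial junctions and polarity 10 were higher and 1 was lower. EPCAM, an epithelial adhesion molecule, was at 3.66, 8.15 and 3.66 CPM and at 40.5, 52.8 and 45.9 CPM (log2 fold change 3.17, standard error 0.41, adjusted p = 1.38e-04). OVOL2 and ESRP1, a transcription factor and a splicing factor that are typical of epithelial cells, had log2 fold changes of 2.27 and 2.13 at levels of at most 3.43 CPM. The 9 markers of A549 epithelium did not rise as a list, with 1 higher (EPCAM), 2 lower and a median of -0.23. CDH1, E-cadherin, was not called, at 1819, 2210 and 2591 reads and at 1235, 1624 and 857 reads in the smaller libraries labelled shRNF113A. The single junction gene that fell was CLDN2, a claudin that forms pores for cations, from 32.2, 32.6 and 26.6 CPM to 2.16, 1.82 and 1.76 CPM (log2 fold change -3.99, standard error 0.20, adjusted p = 1.84e-07).

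**Figure D1:**
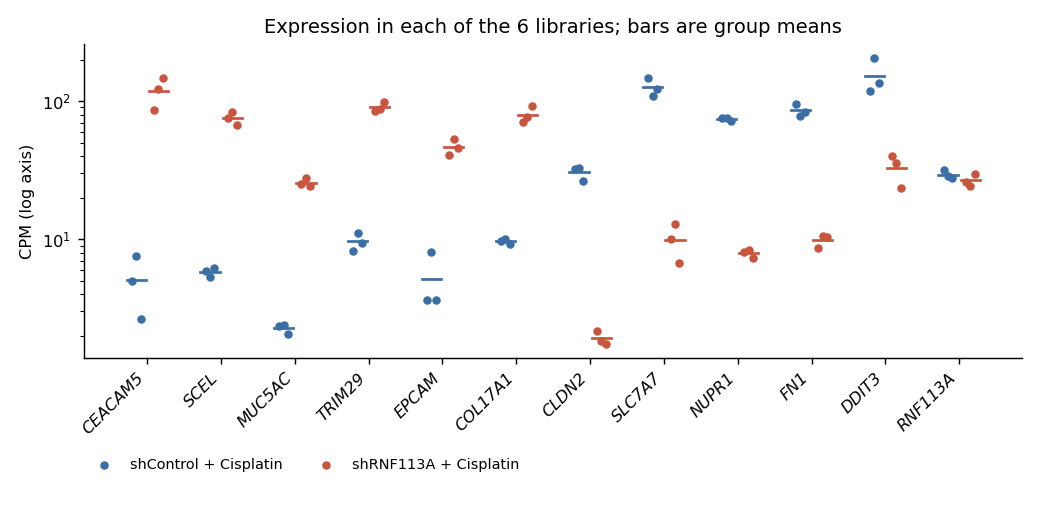
Expression of 12 genes in each of the 6 Cisplatin-treated libraries, in CPM on a log axis, with blue points for shControl, red points for shRNF113A and bars for group means. The first 6 genes lie higher and the next 5 lower in every library labelled shRNF113A, and RNF113A is the one gene with overlapping groups.

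Of 43 mesenchymal and matrix genes 12 fell and 6 rose, where 5.42% and 6.90% of all genes did, with a median log2 fold change of -0.42. FN1, fibronectin, was at 96.0, 78.8 and 83.9 CPM in control libraries and at 8.63, 10.6 and 10.4 CPM in those labelled shRNF113A (log2 fold change -3.13, standard error 0.19, adjusted p = 7.95e-07). NPNT, a basement membrane ligand of integrins, was at 18.05, 36.3 and 23.9 CPM and at 1.74, 2.41 and 1.53 CPM. OLFML3, a secreted olfactomedin-like protein, was at 26.4, 3.22 and 26.7 CPM in control libraries and at 0.420, 0.371 and 0.299 CPM in the others. The control library of replicate 2 lay far below the other control libraries for OLFML3 and still above all 3 libraries labelled shRNF113A. This library also had the lowest control level of NRCAM, a neuronal adhesion molecule (115, 43.8 and 116 CPM against 7.53, 7.36 and 9.69 CPM), and of AKR1B10. It had the highest control level of FAM83A, which was at 1.68, 11.7 and 2.13 CPM against 38.3, 32.2 and 43.9 CPM. Left without that library, the log2 fold change of FAM83A went from 2.89 to 4.26. Not all basement membrane genes were lower, as NID2, a nidogen, rose from 2.76, 5.32 and 3.04 CPM to 38.4, 36.4 and 39.0 CPM.

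Secreted signals were among the largest falls. RSPO3, an R-spondin that strengthens Wnt signalling, was at 61.2, 90.2 and 72.6 CPM in control libraries and at 13.7, 12.9 and 8.01 CPM in those labelled shRNF113A, a log2 fold change of -2.69 (standard error 0.20). SFRP4, a secreted Wnt inhibitor, was at 20.5, 28.2 and 20.8 CPM and at 3.00, 2.78 and 2.84 CPM. BMP7, a bone morphogenetic protein, was at 26.4, 28.1 and 20.8 CPM and at 4.36, 4.05 and 1.87 CPM, a log2 fold change of -2.86. The groups did not overlap for any of these genes, which was a condition for naming them. Of 28 genes of the BMP pathway 2 rose and 2 fell, close to the 6.90% and 5.42% of all genes, and of 14 EGFR family genes and ligands 3 rose and 3 fell, among them the ligand NRG1, which fell from 110.3, 62.6 and 129 CPM to 39.3, 37.6 and 37.8 CPM. The cell surface proteins SLC7A7, a transporter of cationic amino acids, and TM4SF4, a membrane protein of the tetraspanin kind, had log2 fold changes of -3.66 and -3.53. GFRA1, the receptor of glial cell line-derived neurotrophic factor, was at 16.7, 8.13 and 18.96 CPM and at 1.00, 1.14 and 0.599 CPM, -3.97 on the log2 scale (standard error 0.41, adjusted p = 3.18e-05).

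Genes of the integrated stress response, in which ATF4 drives amino acid supply and DDIT3 under protein or nutrient stress, were lower in the libraries labelled shRNF113A. Of 36 tested, 9 fell, 0 rose and 27 were not called, 22 passed the adjusted p-value with a lower level and 1 with a higher level, and the median log2 fold change was -0.58. NUPR1, a small stress-induced chromatin protein, was at 75.7, 75.6 and 71.5 CPM in control libraries and at 8.04, 8.38 and 7.26 CPM in the others (log2 fold change -3.23, standard error 0.10, adjusted p = 6.31e-09). DDIT3, the transcription factor CHOP, was at 118, 205 and 134 CPM and at 40.1, 35.5 and 23.4 CPM (log2 fold change -2.21, standard error 0.22, adjusted p = 2.52e-05). Both groups were tight for NUPR1, and for DDIT3 the lowest control library was still far above the highest library labelled shRNF113A. PHGDH, the first enzyme of serine synthesis, was at 78.1, 72.0 and 69.9 CPM and at 20.3, 20.7 and 22.7 CPM. CBS, which condenses serine with homocysteine, was at 48.8, 43.5 and 49.3 CPM and at 13.6, 13.5 and 13.02 CPM. CHAC1, an enzyme that degrades glutathione, was at 14.7, 17.6 and 15.3 CPM and at 7.27, 6.80 and 4.79 CPM. Of 24 genes of the unfolded protein response, the arm of endoplasmic reticulum stress, 0 were called.

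Other stress programmes moved less. Of 36 NRF2 targets and antioxidant genes 4 fell and 0 rose, all 4 being aldo-keto reductases: AKR1C1 fell from 350.1, 306 and 281 CPM to 102, 117 and 109 CPM, and AKR1B10 from 3937, 1651 and 3065 CPM to 885, 1042 and 1127 CPM. AKR1C1, AKR1C2 and AKR1C3 are close copies, and their reads may be shared. Of 44 p53 targets 1 fell and 0 rose by at least 2-fold, whereas 24 passed the adjusted p-value with a lower level and 0 with a higher one (median -0.31). The gene called was INPP5D, an inositol phosphatase, which was at 4.37, 3.03 and 4.83 CPM and at 1.42, 1.76 and 1.38 CPM. Among 55 genes of G2/M and mitosis 1 rose and 25 passed the adjusted p-value alone with a lower level (median -0.22). The one that rose was PIF1, a DNA helicase of replication and telomeres, from 7.45, 5.05 and 6.73 CPM to 25.5, 21.9 and 31.0 CPM (log2 fold change 2.03, standard error 0.16, adjusted p = 3.63e-06). Of 51 genes of DNA replication and the G1/S transition, CCNE2, cyclin E2, was the one called, at 9.68, 10.2 and 9.83 CPM and at 20.8, 21.7 and 20.7 CPM.

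Replication-dependent histone genes, whose mRNAs normally end in a stem-loop and carry no poly(A) tail, had the highest median of the lists with more than 1 gene tested. Of 23 tested, 17 rose, 0 fell and 6 were not called, and the median log2 fold change was 2.11. HIST1H2BK was at 10.9, 11.5 and 9.09 CPM in control libraries and at 54.4, 51.1 and 71.6 CPM in those labelled shRNF113A (log2 fold change 2.49, standard error 0.17, adjusted p = 1.71e-06). HIST1H3B, HIST1H4H, HIST1H2BC and HIST1H2AM had log2 fold changes of 3.25, 2.93, 2.59 and 2.57 at levels of at most 2.43 CPM. The groups did not overlap for any of these genes. Histone genes are near copies of each other, and the split of reads between them is uncertain. The libraries labelled shRNF113A also had larger shares of unmapped pairs and of pairs on no annotated exon, as given above, and the part of these in the histone levels was not tested.

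AP-1 and other immediate early genes, which answer mitogens and stress within minutes, had 8 higher and 1 lower of 41, where 6.90% and 5.42% of all genes were. JUN was at 28.8, 57.7 and 29.6 CPM in control libraries and at 100.1, 87.0 and 158 CPM in those labelled shRNF113A, and FOS was at 5.71, 26.1 and 8.79 CPM and at 53.8, 33.9 and 63.0 CPM. The log2 fold changes were 1.57 for JUN (standard error 0.33, adjusted p = 0.00276) and 1.89 for FOS (standard error 0.50, adjusted p = 0.00926). Control replicate 2 was the highest control for both genes, and it lay below every library labelled shRNF113A. Of 23 death receptors and adaptors 2 rose, TNFRSF25 and TNFRSF10D, close to the 6.90% of all genes. TNFRSF10D, a decoy receptor for the death ligand TRAIL, was at 103, 73.3 and 97.4 CPM and at 232, 204 and 327 CPM (log2 fold change 1.48, standard error 0.17). NFKBIZ, an atypical inhibitor of NF-kB, was the only one of 20 NF-kB genes called, at 10.8, 13.3 and 15.5 CPM and at 37.5, 32.5 and 43.9 CPM. For the interferon-stimulated genes, glycolysis and hypoxia genes and YAP and TEAD targets the calls in both directions together were near the 12.3% of all genes. Of 47 interferon-stimulated genes 4 were higher and 2 lower, such as the transcription factor IRF7 (log2 fold change 1.31) and IFIT1, which binds foreign RNA (-1.63). Among 37 genes of glycolysis and hypoxia 3 rose and 2 fell, the falls being the carbonic anhydrases CA12, from 588, 549.4 and 540.3 CPM to 137, 146 and 145 CPM, and CA9. Of 25 YAP and TEAD targets 1 rose and 2 fell, including AXL, a receptor tyrosine kinase, from 427, 400.2 and 434 CPM to 193, 193 and 217 CPM.

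In 12 lists no gene was called. Of 31 genes of the spliceosome around RNF113A 0 passed both limits, 4 passed the adjusted p-value with a higher and 6 with a lower level, and the median log2 fold change was -0.03. Likewise 0 were called of the 18 genes of SF3A, SF3B and U2AF (median 0.02), the 21 SR proteins and splicing kinases (-0.04) and the 19 genes of nonsense-mediated decay (0.01). One of the 26 hnRNP proteins was called, PTBP3, a relative of the polypyrimidine tract binding protein, which fell from 244, 250.1 and 249 CPM to 82.7, 86.6 and 84.8 CPM. Of 67 genes that repair cross-links and breaks and of 31 BCL2 family members and caspases 0 were called (medians of -0.13 for both). MCL1, a BCL2 relative that keeps cells alive, was at 332, 299 and 336 CPM and at 394, 417 and 406 CPM (log2 fold change 0.33, adjusted p = 4.22e-03). Ribosomal proteins differed by little, with 31 of 60 past the adjusted p-value with a higher and 0 with a lower level (median 0.23). The remaining lists without a call held metallothioneins, proteasome subunits, the respiratory chain and the synthesis of cholesterol and fatty acids.

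**Figure D2:**
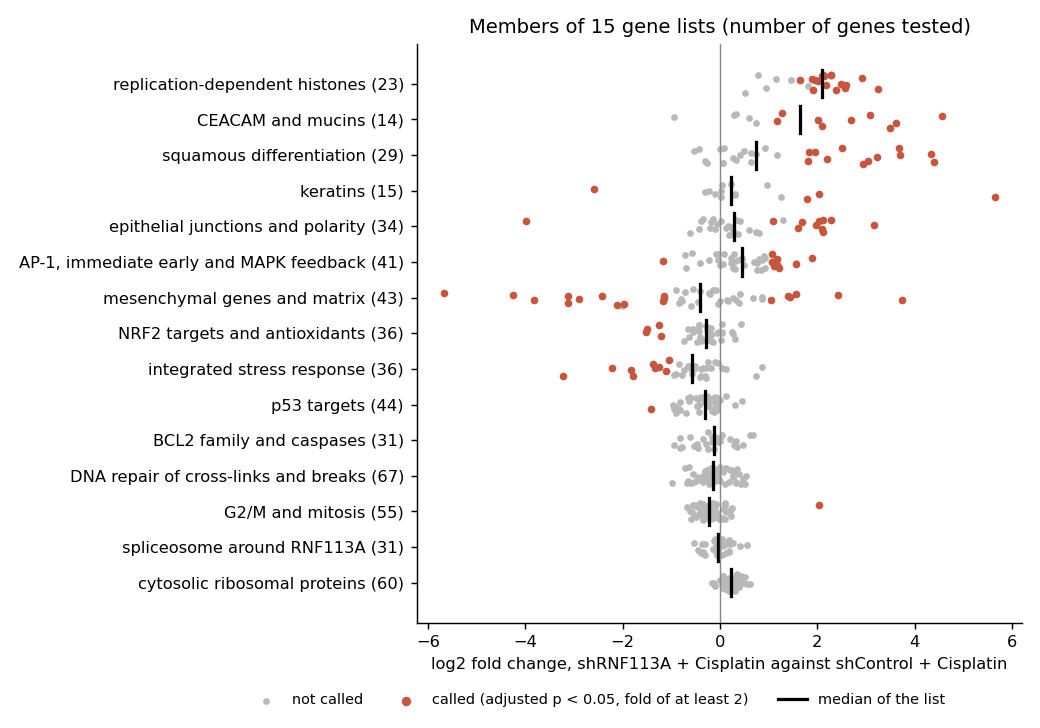
Log2 fold change of each tested member of 15 gene lists, shRNF113A against shControl in Cisplatin-treated cells, with called genes in red and the median of each list as a bar. Histones, CEACAM and mucin genes and squamous genes extend to the right, stress-response genes to the left, and the lists of splicing, repair and ribosomal genes stay around 0.

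Without Cisplatin the same contrast called 1329 of the 15352 genes (8.66%), 568 higher and 761 lower in the libraries labelled shRNF113A. Both contrasts called 791 genes in the same direction, which is 41.8% of the calls in Cisplatin-treated cells and 59.5% of those in untreated cells. The change of CEACAM5 was 4.43 on the log2 scale in untreated and 4.55 in Cisplatin-treated cells, and that of TRIM29 was 3.30 and 3.23. A test of the difference itself, the interaction term, called 196 genes (1.28%), 118 with a higher and 78 with a lower change under Cisplatin, and 120 of them were among the calls in Cisplatin-treated cells. This count rested on single libraries. It was 420 without replicate 2 and 116 without replicate 3 of untreated control cells, 124 without replicate 1 of control cells with Cisplatin, 75, 117 and 97 without replicates 1, 2 and 3 of the untreated libraries labelled shRNF113A, and 98 and 83 without replicates 1 and 3 of those with Cisplatin.

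Histones and the stress response were among the lists with such differences. Of 23 histone genes 10 were called for the interaction, and the list's median log2 fold change was 0.44 in untreated and 2.11 in Cisplatin-treated cells, where 3 and 17 genes were called higher. HIST1H2BK changed by 1.07 and 2.49, an interaction of 1.42 (adjusted p = 0.0118). In the stress response 5 of 36 genes were called for the interaction, and the median was -0.19 and -0.58. DDIT3 was at 11.8, 8.94 and 11.4 CPM in untreated control cells and at 8.36, 7.80 and 8.33 CPM in the untreated libraries labelled shRNF113A, levels far under those of all Cisplatin-treated libraries. Its log2 fold change was -0.39 without and -2.21 with Cisplatin (interaction -1.81, adjusted p = 0.0125). NUPR1 was at 11.8, 13.8 and 13.4 CPM and at 4.87, 4.31 and 5.26 CPM in untreated cells, so that it was already lower there. CBS had log2 fold changes of -0.34 and -1.82 (interaction -1.48, adjusted p = 0.012). Other lists differed as well. Squamous genes had the smaller median under Cisplatin, 0.75 against 1.43 in untreated cells. There 12 against 17 genes were called higher, and 4 were called for the interaction. For p53 targets the median was 0.06 in untreated and -0.31 in Cisplatin-treated cells, with 4 genes called for the interaction. Of the genes that rose, SNAI1, a repressor of epithelial genes, had 0.02 and 1.39, RSRP1, a protein rich in arginine and serine, had 0.56 and 2.04, HOXB6, a homeobox factor, had 0.18 and 1.65, and PIF1 had 0.42 and 2.03. SERPINB5 and EFEMP1, a fibulin of the matrix, rose less under Cisplatin than without it, with 2.94 against 5.66 and 1.19 against 2.65. Untreated control libraries of SERPINB5 were at 0, 0.331 and 0.0265 CPM, so that its change there is uncertain, and its interaction was called in 2 of 12 fits without one library. For SNAI1 it was called in 4 of the 12.

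**Figure D3:**
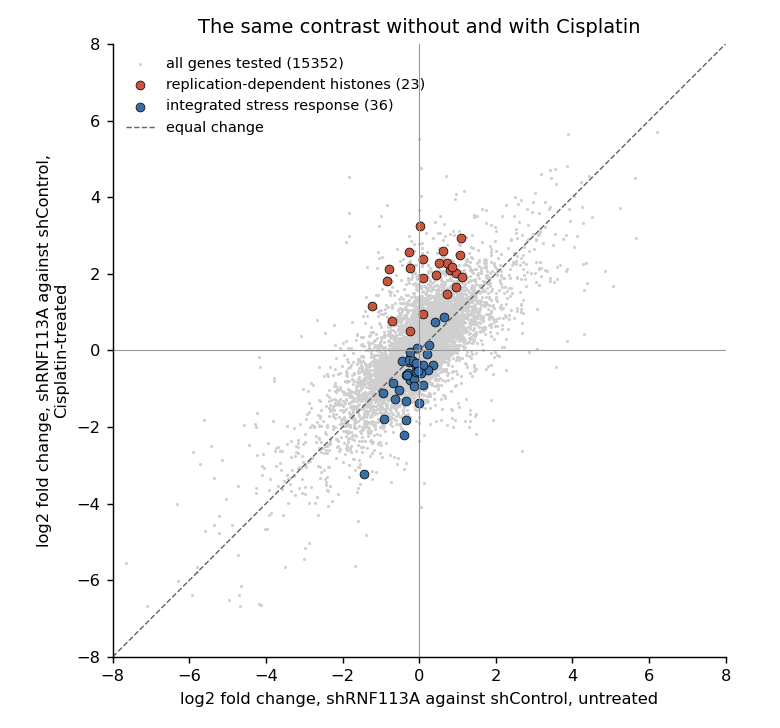
Log2 fold change of shRNF113A against shControl for each of 15352 genes, in untreated cells on the horizontal and in Cisplatin-treated cells on the vertical axis, with replication-dependent histones in red, integrated stress response genes in blue and a dashed line of equal change. All 23 histones lie above 0 on the vertical axis, at a median of 2.11, and most stress-response genes lie below it.

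Splicing was read from the reads of inclusion and skipping forms that rMATS had counted for each event and library. The inclusion level is the share of the form that holds the intron or exon, after each form's reads were divided by its effective length, and differences between levels are given in percentage points. Of 4153 retained intron events 87 were called (2.09%), with an adjusted p-value under 0.05 and at least 20 points between the group means. In the libraries labelled shRNF113A 83 of them had more of the intron (2.00%) and 4 had less (0.0963%). The shift was broader than the calls, since 80.0% of all events had a higher level in these libraries, the median difference was 2.15 points, and 909 events (21.9%) passed the adjusted p-value alone, 887 of them upwards and 22 downwards. The groups did not overlap for 81 of the 87 called events, against 38.6% of all events. The tables do not name the order of the libraries in a group, and they are called a, b and c here. The count of calls was 44 without library b and 140 without library c of the control cells, and 54 without library c of those labelled shRNF113A.

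The ends of 6 introns that carried this result are printed with the coordinates of each intron, its 5′ splice site with the last 9 bases of the exon and 15 bases of the intron, and its 3′ splice site with 20 bases of the intron and the first 6 of the next exon. The first 5 rose and the last, THOC6, fell. The sequence is that of GRCh37 on the strand of the gene, and capitals mark the first and the last pair of intron bases.
HMG20B (19:3573799-3574380) 5′: gaggaggagGTgagagtccctgcg
HMG20B 3′: gacgcagcccggttctgcAGccggtg
NME4 (16:448386-448989) 5′: gctcacctgGTggggaaagtgtgt
NME4 with the 5′ site downstream (16:448395-448989): gtggggaaaGTgtgtttctccctg
NME4 3′, shared by both: tgacctcttgccttttgaAGgagggc
RPAIN (17:5329403-5331390) 5′: atgtacaaaGTaagagtttttaaa
RPAIN 3′: tgaacttttttattttgtAGtcttct
EWSR1 (22:29694886-29695184) 5′: tcccaatccGTatgtacttgtctt
EWSR1 3′: tccttgtttatcttccttAGttcaat
THOC6 (16:3075990-3076251) 5′: ctttccaagGTgggtatacctgtg
THOC6 3′: tggtattttctcttttgaAGggctgt

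All of these introns begin with GT and end with AG. So did 82 of the 83 called introns that rose (98.8%) and 4099 of the 4153 introns tested (98.7%), and called introns were not set apart by their length or base composition to any large extent. Their median length was 314 nt and their median GC content 59.2%, against 251 nt and 57.1% over all introns. The 22 introns that passed the adjusted p-value downwards were longer and poorer in GC, with medians of 704.5 nt and 43.6%. The 2 introns of NME4 share their 3′ site and most of their sequence, so they are not separate observations.

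HMG20B, a subunit of a complex that removes methyl groups from histones, retained its intron at 31.9%, 21.0% and 38.7% in the control libraries a, b and c and at 62.2%, 70.1% and 56.4% in those labelled shRNF113A. By edgeR's quasi-likelihood test on inclusion against skipping reads the difference was 32.3 points with an adjusted p of 7.26e-05, and untreated cells had a called difference of 28.2 points. The longer intron of NME4, a mitochondrial nucleoside diphosphate kinase, was at 33.3%, 25.5% and 44.4% and at 67.4%, 76.5% and 59.4%. For RPAIN, which carries replication protein A into the nucleus, the levels were 65.3%, 39.2% and 55.6% and 82.3%, 88.4% and 84.2%, a rise of 31.6 points with 0.905 points between the groups in untreated cells. In each case every library labelled shRNF113A lay above every control library, which was a condition for naming these introns. EWSR1, an RNA-binding protein, had the largest named rise, 36.2 points, from 26.3%, 30.7% and 57.6% to 73.3%, 70.6% and 79.2%, on as few as 54 reads in a library. SNHG12, a long noncoding RNA that hosts small nucleolar RNAs, was at 41.6%, 23.2% and 44.1% and at 65.5%, 61.9% and 69.9%, with at least 604 reads in each library. In untreated cells it was at 65.9% with the control shRNA and 70.8% with the other. Control library b was the lowest of the controls for RPAIN, HMG20B, NME4 and SNHG12, and control library c the highest for EWSR1, HMG20B, NME4 and SNHG12.

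The other named rises were in ENTHD2 (31.2 points), U2AF1L4 (29.9 points), PHKG2, a subunit of phosphorylase kinase (29.2 points), and CDK5RAP3, a partner of the UFM1 ligase (28.4 points). CDK5RAP3 was at 33.9%, 28.2% and 42.6% and at 60.5%, 61.2% and 68.1%, on at least 645 reads. U2AF1L4, a relative of the U2AF subunit that reads the AG of the 3′ splice site, was at 36.3%, 39.5% and 46.4% and at 67.5%, 72.3% and 72.1%. Among the introns that fell, THOC6, a subunit of the mRNA export complex THO, was at 91.4%, 97.0% and 95.8% and at 73.8%, 77.5% and 67.6% (-21.8 points, adjusted p = 0.000453), a call that held in 5 of the 6 fits without one library, as that of RPAIN did. TAF15, an RNA-binding relative of EWSR1, was at 87.2%, 85.7% and 85.3% and at 55.8%, 73.5% and 62.7% (-22.0 points, adjusted p = 0.0298), a call that held in 2 of these fits. The other called falls, in PRPF4B (-28.9 points) and HEXDC (-37.7 points), had groups that overlapped, so the rule did not name them, and they were picked after their values were seen. No gene with an intron named by the rule was called for expression. HMG20B, ENTHD2, U2AF1L4, PHKG2, CDK5RAP3 and THOC6 did pass the adjusted p-value with a higher level, and the others did not pass. THOC6 fell just short of 2-fold (log2 fold change 0.99). Of the 77 genes with a called intron that were tested 5 were called, where 12.3% of all genes were.

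**Figure D4:**
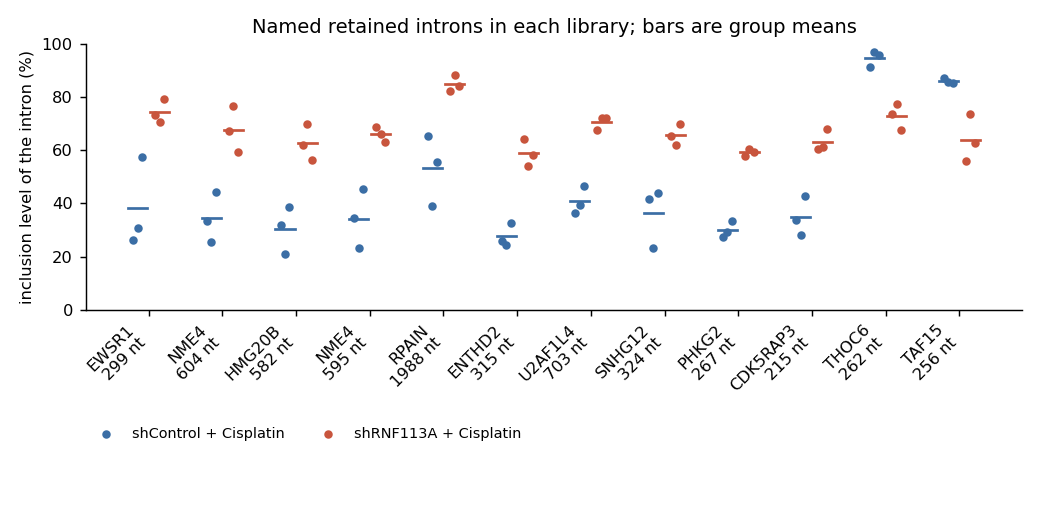
Inclusion level in percent of the named retained introns, with their lengths in nt, in each Cisplatin-treated library, blue for shControl, red for shRNF113A and bars for group means. In the first 10 introns every red point lies above every blue one, and in THOC6 and TAF15 every red point lies below, which was a condition for naming them.

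In genes of splicing itself, introns of SR proteins and splicing kinases had 9 events past the adjusted p-value upwards and 1 downwards of 19 in 9 genes, with a median difference of 7.34 points, where 21.4% of all events passed upwards and the median was 2.15 points. Of these 2 were called. TRA2A, an SR-like regulator of exon use, was at 63.7%, 42.04% and 71.0% in control libraries and at 87.9%, 80.4% and 89.8% in those labelled shRNF113A, and CLK1, a kinase of SR proteins, was at 29.2%, 17.4% and 44.8% and at 52.7%, 59.9% and 50.6%. SRSF5 passed the adjusted p-value below the limit of 20 points, from 12.6%, 11.5% and 19.2% to 29.6%, 29.1% and 30.6%. Of 14 events in SF3A, SF3B and U2AF genes 3 were called, where 2.09% of all events were. All 3 were introns of U2AF1L4, the longest of which spans the others. In the spliceosome around RNF113A 0 of 8 events were called and 1 passed the adjusted p-value.

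Of 17 introns of stress-response genes 1 was called, in DDIT3. It was retained at 35.0%, 33.4% and 38.3% in control libraries and at 58.0%, 56.1% and 54.4% in those labelled shRNF113A, a rise of 20.6 points (adjusted p = 0.0135) in a gene whose mRNA level fell. In untreated cells it was at 63.6% with the control shRNA and 62.7% with the other, above every Cisplatin-treated library. A DDIT3 event of 267 nt shares its 5′ splice site and most of its sequence with this intron, so it is not a separate observation. It was at 7.86%, 5.13% and 9.84% and at 20.9%, 18.3% and 31.1% (15.8 points, adjusted p = 4.24e-06), which is below the limit. In untreated cells it was at 23.4% with the control shRNA and 28.8% with the other. BAX, the pore-forming killer of the BCL2 family, had an intron of 87 nt at 7.75%, 6.15% and 9.97% and at 17.1%, 16.2% and 19.5% (9.64 points, adjusted p = 0.000324). Introns of p53 targets passed the adjusted p-value upwards in 6 of 11 events, those of DNA repair genes in 4 of 22, and those of ribosomal protein genes in 24 of 64 with 1 downwards, beside 21.4% of all events, so that the share for DNA repair genes was near that of all introns. Of these events 0 were called. The groups did not overlap for any of the introns given here by name.

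The rise differed with how much of an intron control cells retained. With at least 50 reads in every library, 1505 introns were retained at up to 10% in control cells, with a median difference of 1.65 points and 1 call. From 10% to 30% there were 323 introns, with a median of 9.38 points and 30 calls, and from 30% to 60% there were 140, with a median of 11.1 points and 24 calls. Above 60% the median of 747 introns was 0.395 points, and 33 passed the adjusted p-value upwards and 21 downwards. A level near 0 or near 100% leaves little room to pass a limit set in points on one side, and the control level enters both the bin and the difference.

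Skipped exons moved in both directions. Of 69112 events 32 were called (0.0463%), 16 with higher and 16 with lower inclusion in the libraries labelled shRNF113A (0.0232% each), and 410 (0.593%) passed the adjusted p-value alone, 101 upwards and 309 downwards. For all 32 the groups did not overlap, against 11.2% of all events. The count was 17 without library a and 16 without library b of the control cells, and 21 without library a and 13 without library c of those labelled shRNF113A. Exons that were used more had a median length of 228.5 nt, and 3 of 16 were a multiple of 3 in length, whereas exons used less had a median of 106 nt with 8 of 16 a multiple of 3, and all exons tested had 117 nt and 39.7%.

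The largest change was a loss of an exon of 116 nt in NOP56, a core protein of box C/D small nucleolar particles. A second exon shown is that of SAT1, an enzyme that acetylates spermidine and spermine, which the study also examined. Their ends are given as for the introns, with the last 20 bases of the intron before and the first 15 of the intron after the exon.
NOP56 exon (20:2638019-2638134) 3′ splice site before it: actacctcttgattctatAGgaagga
NOP56 5′ splice site after it: caacctgggGTagtgtaaattcct
SAT1 exon (X:23802411-23802520) 3′ splice site before it: taatttgtcccaatcttcAGgttaca
SAT1 5′ splice site after it: ataaatgagGTaaggtcctattat

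The exon of NOP56 was included at 83.6%, 83.8% and 87.4% in control libraries and at 34.0%, 37.2% and 26.7% in those labelled shRNF113A. This was a fall of 52.3 points (adjusted p = 1.64e-15), while in untreated cells the levels were 97.8% and 97.5%, and the difference between these contrasts was not tested. The exon of SAT1 was at 44.2%, 52.3% and 44.4% and at 26.1%, 28.5% and 13.9%, a fall of 24.1 points (adjusted p = 3.17e-05) on at least 2412 reads in every library. In untreated cells it was at 51.7% with the control shRNA and 54.8% with the other. The mRNA level of SAT1 overlapped between the groups, at 473, 782 and 563 CPM and 486, 457 and 596 CPM (log2 fold change -0.24, adjusted p = 0.369).

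TAPBP, the tapasin that loads peptides on MHC class I, included an exon of 90 nt at 89.3%, 90.1% and 92.5% in control libraries and at 59.9%, 63.3% and 59.9% in the others. FYB, an adaptor protein of integrin signalling, was at 66.4%, 80.1% and 65.8% and at 31.7%, 44.5% and 24.7%. TMBIM6, an inhibitor of BAX, fell by 37.3 points and SCAMP3, a carrier protein of membranes, by 24.6 points, calls that each held in 4 of the 6 fits without one library, and SAT2, a relative of SAT1, fell by 29.3 points, a call that held in 0 of them. Among the exons used more, NDEL1, a partner of dynein, was at 17.0%, 19.2% and 16.2% and at 46.8%, 40.6% and 57.0%. RNPS1, a component of the exon junction complex, included an exon of 107 nt at 10.1%, 6.56% and 11.2% and at 28.7%, 39.2% and 33.8%. IVNS1ABP, a kelch protein, was at 17.3%, 13.1% and 18.95% and at 44.2%, 41.5% and 44.2%. The rises of DTYMK (29.0 points), PXN (24.8 points) and TMEM156 (24.7 points) held in 2, 0 and 1 of the 6 fits. An exon of RNF8, a ubiquitin ligase of the DNA damage response, was at 88.7%, 87.4% and 88.4% and at 74.0%, 78.7% and 73.5%, which did not pass (adjusted p = 0.365).

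The other categories had few calls. Alternative 5′ splice sites were called in 10 of 3913 events (0.256%), 6 towards (0.153%) and 4 away from the longer exon (0.102%), and the count was 2 and 6 without library a and c of the control cells and 6 and 3 without library a and c of those labelled shRNF113A. RAB15, a small GTPase, used the longer form at 37.6%, 44.7% and 47.1% in control libraries and at 74.8%, 73.3% and 75.5% in the others, on at least 59 reads, with 31.9 points between the groups in untreated cells as well. Its call held in 0 of the 6 fits without one library, and those of WBSCR22, a methyltransferase of ribosomal RNA (35.0 points), and OGFOD2 (28.8 points) in 3 and 1 of them. Alternative 3′ splice sites were called in 11 of 5697 events (0.193%), 9 upwards (0.158%) and 2 downwards (0.0351%), and the count was 6 and 7 without library a and b of the control cells and 7 without library a of the others. RNF181, a ubiquitin ligase, used the longer form at 100% in all 3 control libraries and at 57.9%, 70.9% and 74.5% in those labelled shRNF113A. U2AF1L4 was at 35.0%, 41.96% and 47.6% and at 68.1%, 73.4% and 74.1%, an event that shares reads with its retained introns. PRICKLE4 rose by 27.6 points, a call that held in 3 of the 6 fits. Mutually exclusive exons were called in 6 of 14505 events (0.0414%), 2 upwards (0.0138%) and 4 downwards (0.0276%), while 2.96% passed the adjusted p-value alone, with 3 calls without library a of the control cells, and 12 and 3 without library b and c of the others. They included ZNF211 (30.8 points), MPHOSPH9 (-24.7 points) and AC011530.4 (-27.4 points), the first pair on as few as 23 reads in a library and with calls that held in 2 and 3 of the 6 fits.

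Reads within introns were followed over whole protein-coding genes, as the read pairs that fell on a gene minus those on its exons. In Cisplatin-treated cells the intronic share of genic read pairs was 5.49%, 4.66% and 7.19% in control libraries and 9.99%, 10.2% and 10.4% in those labelled shRNF113A, with means of 5.78% ± 1.29 and 10.2% ± 0.187 (SD, n = 3). All 3 labelled libraries lay above all 3 controls, and the difference of 4.41 points reached the smallest p that the exact permutation test allows here (two-sided, p = 0.10). Control replicate 3 stood above the other controls, and without it the difference was 5.11 points. In untreated cells the shares were 4.83%, 4.35% and 4.74% and 6.13%, 6.64% and 5.76%, a difference of 1.54 points (exact permutation test, p = 0.10). Depth and the share of unmapped pairs moved with these groups as given above, and their part in the intronic share was not tested. The share of pairs on no annotated exon also moved, but it includes pairs within introns and is not a separate measure. Pairs on the strand opposite to genes made up 1.45% on average in control and 1.55% in the other libraries, again without overlap between the groups. Their part in the intronic share was not tested.

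The rise was spread over the genome. Of 10984 genes tested for the ratio of intronic to exonic reads 9257 passed an adjusted p-value under 0.05 (84.3%), 9232 with a higher ratio (84.0%) and 25 with a lower ratio (0.228%) in the libraries labelled shRNF113A. The median log2 change was 0.97, the 5th and 95th percentiles were 0.17 and 1.72, and the ratio was at least doubled in 5176 genes (47.1%). In untreated cells 3291 genes (30.0%) passed, with a median of 0.47. The difference between the contrasts was called for 399 genes (3.63%), 397 with a larger change under Cisplatin, but that count depended on the libraries. It was 47, 509 and 5300 without replicates 1, 2 and 3 of the control cells with Cisplatin, and 148, 243 and 27 without replicates 1, 2 and 3 of those labelled shRNF113A. The median over all genes in Cisplatin-treated cells was 0.79 without control replicate 2 and 1.18 without control replicate 3.

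GLTSCR1L, a subunit of a SWI/SNF chromatin remodelling complex, had 9.81, 12.9 and 17.98 intronic reads per 100 exonic reads in control libraries and 150.4, 146 and 291 in those labelled shRNF113A. Its log2 ratio rose by 3.78 (standard error 0.26, adjusted p = 1.18e-08), and by 1.06 in untreated cells. DDIT3 was the next, with 5.67, 2.34 and 8.27 intronic reads per 100 exonic reads and 27.2, 24.2 and 62.3, a log2 change of 2.81 (standard error 0.36, adjusted p = 3.82e-06). In DDIT3 the intronic reads were 250, 198 and 510 and 319, 261 and 346, while the exonic reads were 4412, 8447 and 6164 and 1172, 1078 and 555. The numerator thus overlapped between the groups and the denominator did not. ELF4, an ETS transcription factor, was at 0.907, 1.36 and 1.51 and at 6.70, 6.73 and 10.6 per 100, and SERTAD1, a transcriptional cofactor of the cell cycle, at 1.00, 0.640 and 1.598 and at 5.41, 4.70 and 7.26 per 100. In ELF4 and SERTAD1 the intronic reads themselves were higher, from 30, 42 and 58 to 161, 164 and 213 for ELF4 and from 72, 65 and 132 to 313, 265 and 393 for SERTAD1. The log2 changes were 2.64 for ELF4 and 2.47 for SERTAD1, and those of KCNAB2, STRA13, OSBPL5 and HDAC4, the other rises named, were 2.76, 2.59, 2.48 and 2.33. Reads of genes that lie within an intron may be counted with it.

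Falls of the ratio were few and small. The largest among genes with at least 100 reads of each kind were those of ZNF286B (-0.88), GPR135 (-0.75), KCNJ14 (-0.71) and RPS27, a ribosomal protein (-0.71), which had 1.54, 2.66 and 1.803 intronic reads per 100 exonic reads in control libraries and 1.17, 1.36 and 1.08 in the others. Of the genes that the study names, MCL1, RNF8 and SF3B2 rose by log2 changes of 1.64, 1.19 and 1.03. SAT1 (0.20, adjusted p = 0.336), NUPR1 (-0.76, adjusted p = 0.166) and GFRA1 (0.17, adjusted p = 0.70) did not pass in edgeR's quasi-likelihood test, and in the labelled libraries NUPR1 had at most 4 and GFRA1 at most 27 intronic reads.

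The ratio rose at all gene lengths. Genes divided into 4 equal bins by the summed length of their introns had medians of 0.97, 1.02, 0.96 and 0.93 from the shortest to the longest. Divided by exonic reads, 61.9%, 87.3%, 91.7% and 95.5% of the genes were called higher from the lowest to the highest bin, so more genes passed where there were more reads. By expression, genes that rose in the libraries labelled shRNF113A had 127 of 353 called higher for the ratio (36.0%) with a median of 0.42, genes that fell had 388 of 481 (80.7%) with a median of 1.21, and genes not called for expression had a median of 0.97. Expression and the ratio share the exonic reads, and across 10772 genes, which are not independent replicates, their log2 changes were correlated with r = -0.31 and rho = -0.26, given as a description. All 15 tested genes of SF3A, SF3B and U2AF were called higher (median 1.20), as were 31 of 31 genes of cholesterol and fatty acid synthesis, 23 of 25 BCL2 family genes and caspases (median 1.20), 51 of 58 ribosomal protein genes (median 0.81) and 3 of 8 CEACAM and mucin genes. Of 64 genes with a called rise of a retained intron 62 were called higher for the whole-gene ratio (96.9%, median 1.07), where 84.0% of all genes were.

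**Figure D5:**
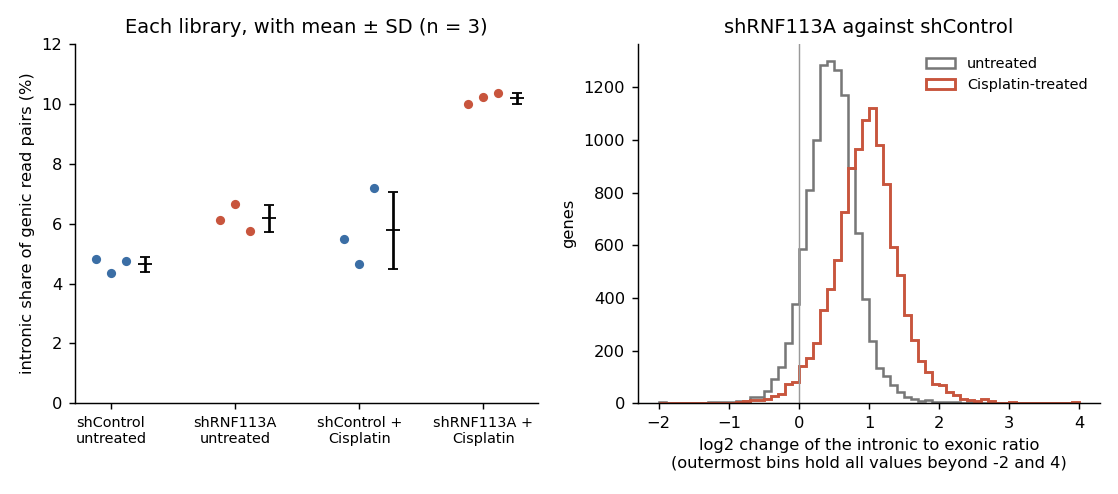
Left, intronic share of genic read pairs in percent in each of the 12 libraries with the mean and SD of each group (n = 3); right, number of genes by log2 change of the intronic to exonic ratio, shRNF113A against shControl, in grey for untreated and red for Cisplatin-treated cells. The libraries labelled shRNF113A with Cisplatin lie at 9.99% to 10.4%, and the red distribution has its median at 0.97 where the grey one has 0.47.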

How the data were processed

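Libraries were grouped by their labels, and the members and gene lists were chosen with earlier results of these data known. Raw read counts per gene were made by the authors with STAR 2.5.2b on hg19 and deposited without normalization, those of the gene's own strand being used. Reads of inclusion and skipping forms were counted by the authors with rMATS on the Ensembl GRCh37 annotation, whose deposited p-values, FDR and inclusion levels were not used. Counts on exons and on whole genes were deposited by the authors from HTSeq on protein-coding Gencode v19 genes. Every column with values of a sample could be mapped, leaving 0 out.

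Expression was fitted over all 12 libraries with the quasi-likelihood test of edgeR 4.0.16 in R 4.3.3 after TMM scaling and filterByExpr, and genes were called where the p-value adjusted by Benjamini-Hochberg was under 0.05 and the change 2-fold or more. Reads of inclusion against skipping (called at 20 points) and intronic against exonic reads (means of at least 10 each) were tested with a term for each library. Tests were checked on simulated counts. Named by rule were the 12 largest rises and falls with a mean of 10 CPM and no overlap, up to 4 called genes of each of 40 lists, 5 interactions each way, genes the study names, 10 rises and 4 falls of introns and 6 exons each way with 50 reads in every library and no overlap, 3 events of each other category, and 8 rises and 4 falls of the ratio with 100 reads. PRPF4B and HEXDC, introns that fell with overlapping groups, are outside the rule. Alternatives were other scaling, filters and limits, DESeq2 1.42.0, unstranded counts, a replicate block and fits without one library. Tables and figures used Python 3.11.15, pandas 2.3.3, numpy 2.4.6 and matplotlib 3.10.9. Intervals for single libraries were not computed, and 3 libraries per group limit the precision. Some named genes are not reported here.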

Additional observations from a re-analysis of the deposited data

Results flagged for a closer look

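The results below were picked out because the difference between the libraries labelled shRNF113A and shControl was itself different in Cisplatin-treated and in untreated cells, by the interaction term of edgeR's quasi-likelihood test. For expression this held for 196 genes, a count that ranged from 75 without replicate 1 of the untreated libraries labelled shRNF113A to 420 without replicate 2 of the untreated controls. Interaction log2 fold changes below 0, a lower change under Cisplatin, were -2.72 for SERPINB5, -1.84 for INPP5D, -1.81 for DDIT3, -1.80 for NUPR1, -1.48 for CBS, -1.47 for EFEMP1 and -1.27 for CLDN2. Those above 0 were 1.18 for AGER, the receptor of advanced glycation end products, 1.20 for MYO1D, an unconventional myosin, 1.30 for TNFRSF10D, 1.35 for MUC5AC, 1.38 for SNAI1, 1.47 for RSRP1, 1.47 for HOXB6, 1.61 for PIF1 and 2.31 for DHX58, a regulator of RNA sensing. Among histones they were 1.42 for HIST1H2BK, 1.85 for HIST1H4H, 1.97 for HIST1H2BC, 2.85 for HIST1H2AM and 3.23 for HIST1H3B.

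For the ratio of intronic to exonic reads the difference was called for 399 genes, a count that ranged from 27 without replicate 3 of the libraries labelled shRNF113A with Cisplatin to 5300 without replicate 3 of the controls with Cisplatin. The interaction log2 changes of the named genes were 1.38 for OSBPL5, 1.43 for STRA13, 1.57 for KCNAB2, 1.79 for HDAC4, 2.01 for SERTAD1, 2.12 for ELF4 and 2.73 for GLTSCR1L.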

How the results depend on the processing

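With at least 10 counts in every library 1103 genes were called for expression in place of 1891 (607 higher and 496 lower), by a filter that removes genes near 0 in one group. DESeq2 called 1781, unstranded counts 2046, library sizes in place of TMM 1887 and no filter 2035. With a limit of 10 points, and with none, the calls rose by construction to 265 and 909 retained introns, 96 and 410 skipped exons, 32 and 104 alternative 5′ sites, 42 and 119 alternative 3′ sites and 55 and 429 mutually exclusive exons. Without one of the 12 libraries at a time the counts ranged from 1623 to 2080 genes for expression and 75 to 420 for the interaction. Without one of the 6 Cisplatin-treated libraries they ranged from 44 to 140 retained introns, 13 to 27 skipped exons and 2 to 7 alternative 5′ sites. They also ranged from 6 to 14 alternative 3′ sites, 3 to 12 mutually exclusive exons and 8484 to 9738 genes for the intronic ratio. The log2 fold change of RNF113A ranged from -0.24 to -0.13 and the difference of intronic shares from 3.85 to 5.11 points. Without control replicate 1 the calls with Cisplatin were 856 higher and 887 lower. The cause of these shifts was not tested. No single named value reversed its direction, but the larger side of the call counts did in some fits. Without replicate 2 of the untreated controls the interaction calls were 183 higher and 237 lower. The calls in untreated cells were then 736 higher and 689 lower.

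The libraries share replicate numbers, but same-numbered libraries did not deviate together (r = -0.20, 0.090 and -0.019 over 9779 genes), so the numbers were not taken as pairs. With the replicate block 1980 genes were called for expression, 217 for the interaction and 9260 for the intronic ratio, and in the 6 Cisplatin-treated libraries alone 1769 without and 1759 with it, the last fit added after the data had been seen. For the splicing events alone there is no such fit: No paired analysis was possible because their tables do not name the libraries. Of single values under the alternatives, 1402 log2 fold changes kept their direction and side of the limits and 50 fell short of a limit. These counts were 78 and 6 for retained introns, 59 and 25 for skipped exons, 7 and 14 for alternative 5′ sites, where most values fell short, 18 and 3 for alternative 3′ sites, 14 and 7 for mutually exclusive exons, 122 and 18 for interactions and 118 and 1 for ratios. Depth is lowest in the libraries labelled shRNF113A, and calls of introns include some on few reads, down to 2 in a library for FAM132A, picked after its value was seen.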
